A study of Mus musculus with 4 samples.

Results

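The gene set described here comprised 33 mouse genes of the interferon response and of antigen presentation on major histocompatibility complex (MHC) class I molecules, listed by name. Of these, 32 had a row in the gene table, and Mx1 was not analysed here. By role, the list held 2 sensors of foreign nucleic acid, 5 transcription factors, 16 effectors with Mx1 among them, 2 negative regulators, 1 chemokine, 4 genes of the immunoproteasome and of peptide loading, and 3 class I molecules.

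The genes were followed in single cell transcriptomes of dorsal epidermis from C57BL/6N female mice at postnatal day 19 (P19), taken with the BD Rhapsody system after the cells had been labelled with a multiplexing kit. The deposited data hold 1 matrix of counts per mouse. The 2 control mice were CerS4fl/flK14Cre-, carrying floxed alleles of ceramide synthase 4 (CerS4) without Cre. The 2 CerS4epi-/- mice were CerS4fl/flK14Cre+ and expressed Cre from the keratin-14 promoter, which is active in basal keratinocytes, so that their progeny lose the gene as well while immune cells of the epidermis are not targeted. The comparison asks how loss of CerS4 in the epidermis changed the expression of these genes, class of cell by class of cell.

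Interferons are secreted cytokines that act through JAK kinases and STAT transcription factors. Type I and type III interferons drive genes with interferon-stimulated response elements (ISRE) through a complex that includes Stat2 and Irf9, whereas interferon gamma acts at gamma-activated sites (GAS) and induces Irf1. The products include antiviral effectors such as Isg15 and the Ifit proteins, feedback inhibitors such as Usp18 and Socs1, chemokines such as Cxcl10 that recruit T cells, and the machinery that cuts, transports and loads peptides on class I molecules. In the skin, keratinocytes respond to interferons and are known for a strong interferon signature in inflammatory disease, and several of these genes also respond to other cytokines or to damage.

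After a minimum of 1200 counts and a maximum of 20% mitochondrial counts per cell, the control mice retained 8480 and 9089 cells and the CerS4epi-/- mice 9017 and 7567, with a median of 3265 to 3884 counts per cell. Cells were clustered without the listed genes and clusters were named from marker genes, as interfollicular epidermis (IFE) basal-like, IFE differentiated-like, IFE keratinized-like, hair follicle-like, sebaceous gland-like, T cell-like and Langerhans cell-like cells. No cell barcode was shared between the 2 control libraries or between the 2 CerS4epi-/- libraries, whereas each pair of a control and a CerS4epi-/- library shared 64 to 102. Whether the mice of a genotype were captured together is not given in the sources used here and cannot be told apart from the genotype. Cers4 itself was highest in sebaceous gland-like cells, at 3341 and 3514 counts per 1000000 counts (CPM) in the control mice and 322 and 483 CPM in the CerS4epi-/- mice, in 12, 2, 27 and 35 cells. It was also present in T cell-like cells, which K14Cre does not target, at 127 and 86.8 against 114 and 136 CPM. In IFE basal-like cells Cers4 was near 1 CPM in all 4 mice, so that its loss could not be read there. In hair follicle-like cells Cers4 was at 4.91 and 8.60 against 2.19 and 3.22 CPM. This fall (log2 fold change -1.29) did not pass the edgeR quasi-likelihood test (adjusted p = 0.0512).

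The sequences just upstream of the start of each gene's canonical transcript were read first, because ISRE and GAS elements lie in the promoters of genes of this kind. An ISRE-like match was taken as GAAA and GAAA separated by any 2 letters, and a GAS-like match as TTC and GAA separated by any 3 letters, on either strand within the 250 bases before the start. ISRE-like matches were present upstream of 9 of 32 listed genes (Isg15, Ifit1, Ifit3, Stat2, Rsad2, Bst2, Usp18, Zbp1 and Cxcl10), or 28.12%, against 3.32% of the upstream regions of 21770 protein-coding genes. GAS-like matches were present upstream of 7 listed genes (Ifit2, Irf1, Gbp7, Oas1a, Bst2, Zbp1 and H2-D1), or 21.88%, against 7.7%. In Bst2 and Zbp1 a match of one kind overlapped a match of the other.

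The 4 upstream regions printed in this paragraph belong to genes that differed between the genotypes, with matches in capitals. They were chosen to hold an example of each kind and, for Socs1, an example with neither. Isg15 lies on the minus strand, and its region chr4:156285304-156285553 of GRCm39 holds 3 overlapping ISRE-like matches that start 50, 44 and 38 bases upstream. The region of Cxcl10, chr5:92496749-92496998 on the minus strand, holds 1 ISRE-like match 213 bases upstream. The region of Irf1, chr11:53660591-53660840 on the plus strand, holds 1 GAS-like match 90 bases upstream. The region of Socs1, chr16:10603876-10604125 on the minus strand, held none of these letters in this window.
Isg15: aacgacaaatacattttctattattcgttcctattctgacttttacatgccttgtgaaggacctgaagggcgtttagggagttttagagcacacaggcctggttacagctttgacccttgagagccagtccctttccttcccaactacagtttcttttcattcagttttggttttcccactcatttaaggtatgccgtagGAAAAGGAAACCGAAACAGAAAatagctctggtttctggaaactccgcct
Cxcl10: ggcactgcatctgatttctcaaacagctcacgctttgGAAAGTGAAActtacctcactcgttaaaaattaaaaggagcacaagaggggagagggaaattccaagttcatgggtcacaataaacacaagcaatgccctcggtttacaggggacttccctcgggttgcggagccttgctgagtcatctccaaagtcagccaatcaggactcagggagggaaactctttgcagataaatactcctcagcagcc
Irf1: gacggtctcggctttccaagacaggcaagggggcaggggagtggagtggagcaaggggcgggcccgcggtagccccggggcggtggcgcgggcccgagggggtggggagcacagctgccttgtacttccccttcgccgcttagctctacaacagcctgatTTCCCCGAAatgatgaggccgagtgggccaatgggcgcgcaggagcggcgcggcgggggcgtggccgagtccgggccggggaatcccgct
Socs1: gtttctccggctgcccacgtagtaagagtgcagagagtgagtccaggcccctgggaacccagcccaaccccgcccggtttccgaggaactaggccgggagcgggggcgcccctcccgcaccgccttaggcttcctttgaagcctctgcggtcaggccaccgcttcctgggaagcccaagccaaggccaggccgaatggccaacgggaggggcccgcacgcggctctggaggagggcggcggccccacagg

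Counts were summed per mouse and class, and a gene is called here when its adjusted p in the edgeR quasi-likelihood test lay below 0.05, with adjustment over all genes tested in that class. In IFE basal-like cells, 26 of the 32 genes passed the filter on low counts and 4 of them were called, all higher in CerS4epi-/- mice, where 4.11% of all 13306 genes tested were called higher and 2.71% lower. In IFE differentiated-like cells 2 of 23 were called higher, against 3.93% of 12651 genes higher and 3.04% lower. In IFE keratinized-like cells 3 of 19 were called higher, against 5.83% of 7380 genes higher and 2.76% lower. In hair follicle-like cells 1 of 21 was called higher, against 8.52% of 11778 genes higher and 6.1% lower. In T cell-like cells none of 10 and in Langerhans cell-like cells none of 6 was called, where 0.0224% and 0.128% of all genes tested were called higher and 0% lower. In these immune classes no listed gene had an unadjusted p below 0.05 either, and DESeq2 called 0 as well.

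No listed gene was called lower in any class by this test, nor by DESeq2, and every gene with an unadjusted p below 0.05 (6, 10, 6 and 5 genes in the 4 keratinocyte classes in the order above) was higher in CerS4epi-/- mice. The share of all genes at this unadjusted threshold was not computed. The list was chosen with earlier results of these data known, so these counts and the medians that follow are a description only. The median log2 fold change of the listed genes tested was 0.17 in IFE basal-like, 0.14 in IFE differentiated-like, 0.24 in IFE keratinized-like and 0.13 in hair follicle-like cells, while the median of all genes tested lay between -0.04 and 0.01. For the fewer listed genes tested in the immune classes, which K14Cre does not target, the median was 0.29 in T cell-like and 0.05 in Langerhans cell-like cells. Across all cells kept, 4 of 28 genes were called higher (Irf1, Cxcl10, Socs1 and Ifi27l2a), against 8.18% of 16034 genes higher and 6.08% lower. The genes called differed from class to class, with Irf1, Nlrc5, Socs1 and Cxcl10 in IFE basal-like cells, Psmb8 and H2-K1 in IFE differentiated-like cells, Isg15, Irf7 and Ifih1 in IFE keratinized-like cells and Ifi27l2a in hair follicle-like cells. As it was low everywhere, each of Ifit2, Ifit3, Gbp3 and Zbp1 was tested in no class. Rsad2 was tested in no single class either, but over all cells and in the comparison of IFE keratinized-like against IFE basal-like cells given further on.

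**Figure D1:**
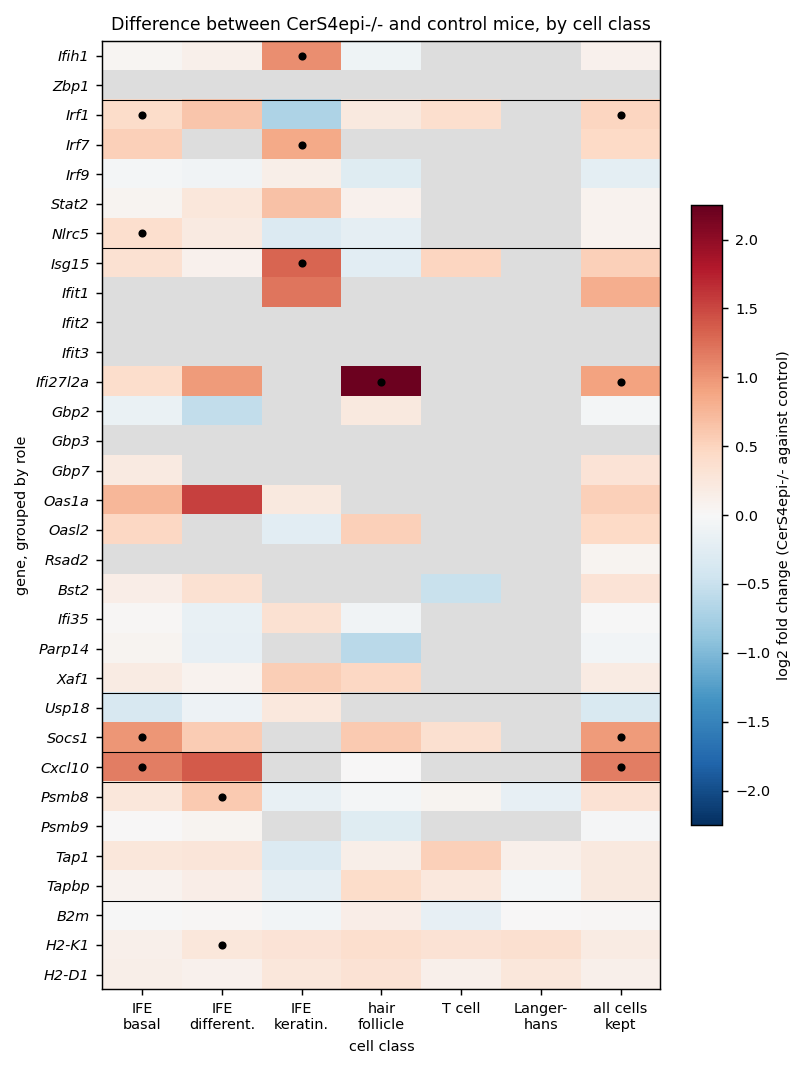
Log2 fold change of CerS4epi-/- against control mice for the 32 genes (rows, grouped by role from sensors at the top to class I molecules at the bottom) in 6 cell classes and over all cells kept (columns); grey cells were not tested and black dots mark an adjusted p below 0.05. The dots fall on different genes in different classes, all of them on higher values in CerS4epi-/- mice, with the largest at 2.21 for Ifi27l2a in hair follicle-like cells.

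IFE basal-like cells were represented by 3753 to 4673 cells and 12173676 to 17294042 summed counts per mouse. The class was mixed. Beside its largest cluster it held 3939 cells of a cluster led by Krt1, Krt5 and Krt10. A further 3804 cells were led by Apoe, Ccl27a and Chd9, with the upper hair follicle-like markers as the next best match. Only 902 cells formed a cluster led by the cycling genes Stmn1, Hmgb2 and Top2a. The largest difference there was in Cxcl10 (ENSMUSG00000034855.14), the chemokine that draws Cxcr3-bearing T cells. Cxcl10 was measured at 17.2 and 10.7 CPM in the control mice and at 32.7 and 29.0 CPM in the CerS4epi-/- mice, which do not overlap. It rose by a log2 fold change of 1.15 (SE 0.20, adjusted p = 0.0172). Within the class, Cxcl10 was highest in the cluster led by Apoe, Ccl27a and Chd9, at 52.4 and 23.2 CPM in control and 76.4 and 46.8 CPM in CerS4epi-/- mice, where the groups overlap. In the largest basal cluster it was at 9.40 and 10.4 CPM against 21.8 and 22.4 CPM. The Apoe cluster itself numbered 734 and 546 cells under control against 1315 and 1209 under CerS4epi-/-.

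Socs1, which inhibits JAK kinases downstream of interferon gamma, was at 6.26 and 6.76 CPM in control and 12.0 and 14.03 CPM in CerS4epi-/- basal-like cells. It rose by 0.99 (SE 0.15, adjusted p = 0.0122), and the 4 mice separated by genotype with a gap wider than either pair. Both CerS4epi-/- mice were also above both control mice in IFE differentiated-like cells, at 3.88 and 2.96 against 4.67 and 5.50 CPM, and in hair follicle-like cells, at 6.00 and 6.45 against 9.74 and 8.93 CPM, without passing the test (adjusted p = 0.172 and 0.134). With cells of at most 10% mitochondrial counts the basal-like difference was 0.91 and was not called (adjusted p = 0.0612), and likewise in the largest basal cluster alone (0.88, adjusted p = 0.0614).

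The transcription factors Irf1 and Nlrc5 showed smaller differences. Irf1, a factor induced by interferon gamma, was at 112 and 114 CPM in control and 136 and 166 CPM in CerS4epi-/- basal-like cells (log2 fold change 0.42, SE 0.10, adjusted p = 0.0498). Nlrc5, the transactivator of class I genes, was at 53.5 and 58.6 against 69.3 and 76.7 CPM (0.38, SE 0.09, adjusted p = 0.0467). Both lie close to the threshold, and neither was called without control mouse 1 (adjusted p = 0.0851 and 0.168), without control mouse 2 (0.0781 and 0.0569) or without CerS4epi-/- mouse 2 (0.167 and 0.174). Over all alternative settings Irf1 was called in 8 of 17 and Nlrc5 in 7 of 17, whereas Cxcl10 was called in 17 of 17 and Socs1 in 15 of 17.

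The other factors of the list did not pass the test in IFE basal-like cells. Stat2 and Irf9, which act together at ISRE elements, were at 18.0 to 19.7 CPM and 32.0 to 39.9 CPM, and the genotypes of Irf9 overlapped. The antiviral effectors also showed no call, with 10 of 16 tested and log2 fold changes between -0.15 (Gbp2, a GTPase induced by interferon gamma) and 0.75 (Oas1a, an activator of RNase L). Usp18, which removes Isg15 from proteins and blocks the type I receptor, had the lowest log2 fold change of the list in this class, at 10.5 and 7.99 CPM against 8.24 and 5.93 CPM (-0.36, adjusted p = 0.339).

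**Figure D2:**
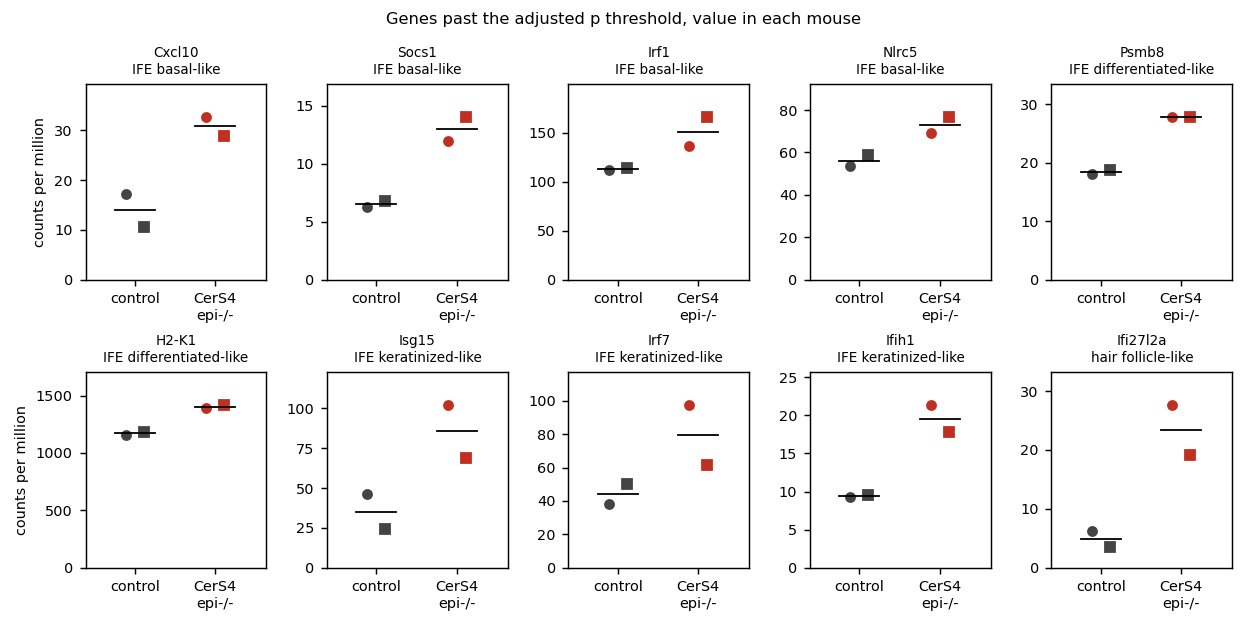
Level in each mouse, in CPM, of the 10 pairs of gene and class past the adjusted p threshold; points are mice (grey for control, red for CerS4epi-/-), horizontal lines are the means of 2 mice, and each vertical axis starts at 0. In every panel both CerS4epi-/- mice lie above both control mice, with Irf1 at 112 and 114 against 136 and 166 CPM among the closest in relative terms and Ifi27l2a at 6.28 and 3.58 against 27.6 and 19.2 CPM the widest.

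IFE differentiated-like cells, the spinous layer above, held 1328 to 2489 cells per mouse. Psmb8 (ENSMUSG00000024338.16), a catalytic subunit that turns the proteasome into the immunoproteasome, was at 18.1 and 18.8 CPM in control and 27.8 and 27.7 CPM in CerS4epi-/- mice. It rose by 0.59 (SE 0.10, adjusted p = 0.00768) and stayed called in 16 of 16 alternatives. In all 3 clusters of this class both CerS4epi-/- mice were higher, for example at 16.1 and 15.9 against 23.3 and 21.4 CPM in the second largest. Its partner subunit Psmb9, whose gene lies next to Tap1 on chromosome 17, was at 13.9 and 18.8 against 19 and 14.7 CPM, where the genotypes overlap.

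H2-K1, a class I heavy chain, was the other gene called in IFE differentiated-like cells, at 1154 and 1186 CPM in control and 1387 and 1418 CPM in CerS4epi-/- mice (log2 fold change 0.26, SE 0.07, adjusted p = 0.0465). The call was lost when any 1 of the 4 mice was left out, with an adjusted p of 0.22 and 0.128 without control mouse 1 or 2 and of 0.0612 and 0.117 without CerS4epi-/- mouse 1 or 2. Tap1, the peptide transporter, was at 77.9 and 92.7 against 98.3 and 108 CPM (0.27, adjusted p = 0.12) and Cxcl10 at 2.28 and 0.64 against 3.35 and 4.26 CPM (1.38, adjusted p = 0.0934), neither called. Irf1 was at 30.5 and 18.96 against 40.6 and 34.7 CPM, a log2 fold change of 0.62 with an adjusted p of 0.0766. Without control mouse 1 the differences of Irf1 (1.00, adjusted p = 0.000481) and Cxcl10 (2.53, adjusted p = 0.00272) were called, and without control mouse 2 that of Tap1 (0.40, adjusted p = 0.0181).

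IFE keratinized-like cells, the granular and cornifying layer marked by Lor and Flg2, were fewer, with 191 to 338 cells per mouse. Isg15 (ENSMUSG00000035692.8), a ubiquitin-like modifier, was at 46.0 and 24.02 CPM in control and 102 and 69.1 CPM in CerS4epi-/- mice. It rose by 1.31 (SE 0.25, adjusted p = 0.00651) and was called in 16 of 16 alternatives. The rise rested on 128 and 75 counts against 263 and 136, and the share of cells with an Isg15 count was 12.0% and 7.69% against 19.4% and 14.7%.

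Irf7, the factor that amplifies type I interferon production, was at 38.4 and 50.3 CPM against 97.6 and 61.5 CPM in the same cells (0.85, SE 0.21, adjusted p = 0.0224). Ifih1, the cytosolic sensor of long double-stranded RNA also known as MDA5, was at 9.34 and 9.61 against 21.4 and 17.8 CPM (1.05, SE 0.27, adjusted p = 0.0276). Neither gene overlapped between genotypes. Irf7 was not called without control mouse 1 (0.67, adjusted p = 0.296) or without CerS4epi-/- mouse 1 (0.47, adjusted p = 0.173). Ifih1 was not called without control mouse 1 (1.03, adjusted p = 0.192), control mouse 2 (1.08, adjusted p = 0.0924) or CerS4epi-/- mouse 1 (0.91, adjusted p = 0.126). Without CerS4epi-/- mouse 2, in turn, Ifit1 (1.66, adjusted p = 0.00044) and Stat2 (1.14, adjusted p = 0.000482) were called as well. Ifit1, a binder of foreign RNA caps, was at 7.90 and 4.16 CPM in control and 18.7 and 8.13 CPM in CerS4epi-/- mice with all mice included (adjusted p = 0.1).

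The genes of peptide processing had lower mean levels in CerS4epi-/- IFE keratinized-like cells and none passed the test. Psmb8, Tap1 and Tapbp, the 3 of 4 processing genes tested there, had log2 fold changes of -0.17, -0.31 and -0.20 there. Tap1 was at 18.0 and 15.4 CPM in control and 14.4 and 12.2 CPM in CerS4epi-/- mice. Irf1 was low in this layer, at 1.56 to 5.13 CPM, and overlapped between genotypes.

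Hair follicle-like cells comprised 5 clusters and held 849 and 1108 cells in control and 1864 and 1709 in CerS4epi-/- mice. The makeup of the class differed, since the cluster led by Cst6, Sprr1a and Defb6 held 253 and 132 cells in control but 618 and 665 in CerS4epi-/- mice. Ifi27l2a (ENSMUSG00000079017.4), a small membrane protein induced by type I interferon, was at 6.28 and 3.58 CPM in control and 27.6 and 19.2 CPM in CerS4epi-/- mice. It rose by 2.21 (SE 0.30, adjusted p = 0.00165), the largest difference of any listed gene in any class tested, and was called in 17 of 17 alternatives. In 4 of the 5 clusters both CerS4epi-/- mice were above both control mice, the exception being the smallest with 66 cells, where they overlapped. The level was 7.96 and 5.70 against 20.9 and 19.1 CPM in the Krt17 and Krt79 cluster and 2.45 and 4.75 against 42.2 and 23.7 CPM in the Cst6 cluster. In the Krt6a cluster it was at 3.02 and 0 against 9.75 and 6.86 CPM. Over the whole class 18 and 10 control cells had an Ifi27l2a count, against 146 and 104 CerS4epi-/- cells. The control levels by cluster therefore rest on few counts, and the share of all genes that separate in as many clusters was not computed.

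No other listed gene was called in hair follicle-like cells. Tapbp, which holds empty class I molecules at the transporter, came closest at 152 and 117 against 177 and 182 CPM (0.41, SE 0.12, adjusted p = 0.0543), and was called without control mouse 1 (0.63, adjusted p = 0.0131) and without CerS4epi-/- mouse 1 (0.43, adjusted p = 0.0317). H2-K1 was at 1606 and 1456 against 1874 and 2087 CPM (0.37, adjusted p = 0.0611) and H2-D1 at 1503 and 1391 against 1768 and 1865 CPM (0.33, adjusted p = 0.0739). DESeq2 called H2-K1 in this class (0.37, adjusted p = 0.0307), in IFE keratinized-like cells (0.34, adjusted p = 0.0396) and over all cells (0.19, adjusted p = 0.0454). Isg15 was low in the follicle, at 4.91 and 2.87 against 3.41 and 3.37 CPM, and overlapped.

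Whether the genotype difference itself differed between classes was tested with an interaction term against IFE basal-like cells. For hair follicle-like cells 1 of 26 listed genes had a higher and 2 a lower difference, against 3.59% of all genes higher and 3.75% lower. Ifi27l2a differed by 1.83 (SE 0.25, adjusted p = 0.000113), with a log2 fold change of 0.39 in basal-like cells (20.1 and 15.4 against 25.4 and 20.9 CPM) beside 2.21 in the follicle. Cxcl10 differed by -1.11 (adjusted p = 0.0248), since it was at 9.003 and 3.58 against 7.43 and 5.71 CPM in hair follicle-like cells, where the genotypes overlap. Nlrc5 differed by -0.58 (adjusted p = 0.0133), at 82.4 and 69.5 against 66.9 and 66.3 CPM in the follicle. Without control mouse 1 neither Cxcl10 (-0.65, adjusted p = 0.604) nor Nlrc5 (-0.37, adjusted p = 0.276) was called, and without CerS4epi-/- mouse 2 Nlrc5 was not (-0.49, adjusted p = 0.0544).

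For IFE differentiated-like against IFE basal-like cells none of 26 listed genes was called, against 0.97% of all genes higher and 0.543% lower, and 2 had an unadjusted p below 0.05. For IFE keratinized-like against IFE basal-like cells none of 28 was called, against 1.68% higher and 1.1% lower, with 4 at an unadjusted p below 0.05. The differences for Isg15 (1.03, SE 0.36, adjusted p = 0.124) and Ifih1 (1.02, SE 0.35, adjusted p = 0.105) were among these 4. So the calls of Isg15, Irf7 and Ifih1 in the keratinized-like cells were not shown to be particular to that layer. DESeq2 was not run on the interaction.

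Of the class I molecules, H2-K1 was higher in both CerS4epi-/- mice than in both control mice in all 6 classes tested, although it was called in 1 of them. This was so for 24 of the 2433 genes tested in all 6 classes (0.986%), and H2-K1 was the 1 among the 6 listed genes tested in all of them. In IFE basal-like cells it was at 1893 and 1872 against 1994 and 2072 CPM, in T cell-like cells at 1667 and 1476 against 1860 and 2096 CPM, and in Langerhans cell-like cells at 1151 and 1299 against 1605 and 1547 CPM. Its log2 fold changes ran from 0.11 in IFE basal-like to 0.37 in hair follicle-like cells. H2-D1, the other heavy chain, separated in the same way in 5 of 6 classes, for example at 1021 and 1036 against 1235 and 1227 CPM in IFE keratinized-like cells, with no call. The share of all genes that separate in 5 of 6 classes was not computed, so this count is a description only.

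B2m, the light chain common to the class I molecules, did not show this order. It separated upward in hair follicle-like cells, at 2243 and 1940 against 2256 and 2374 CPM, and downward in T cell-like cells, at 1931 and 1641 against 1555 and 1607 CPM, and overlapped in the other 4 classes. Its log2 fold changes lay between -0.18 and 0.15. Because class I genes are similar in sequence, some reads were shared between them, with 3.84% of the counts of H2-D1 and 0.571% of those of H2-K1 in entries that were not whole numbers. For Oas1a, which has close paralogues, this share was 41.2%, so its level is uncertain.

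**Figure D3:**
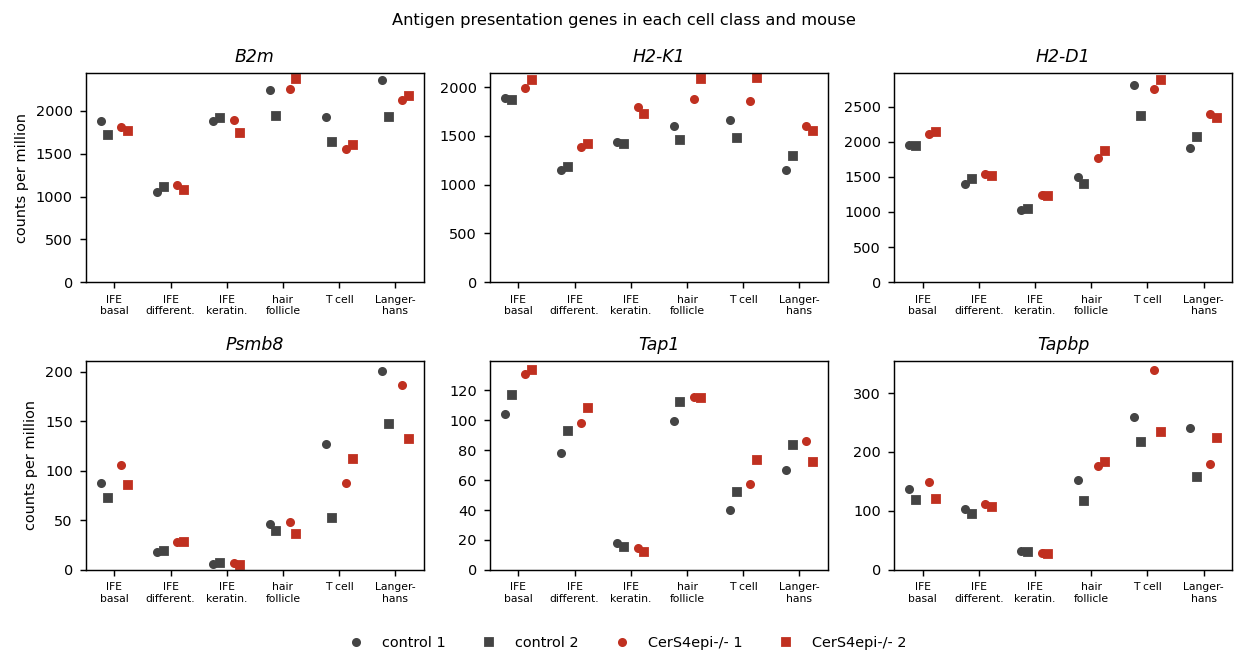
Level in CPM of 6 antigen presentation genes in each of 6 cell classes, with 1 point per mouse (grey for control, red for CerS4epi-/-, circles for mouse 1 and squares for mouse 2 of a genotype). The red points of H2-K1 lie above the grey points in all 6 classes, at 1387 and 1418 against 1154 and 1186 CPM in IFE differentiated-like cells, while those of B2m are mixed with the grey points in 4 of them.

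The level of the listed genes differed between classes. These levels are a description, with the mean and SD over the 4 mice, as the classes come from clustering of the same cells. T cell-like cells had the highest mean for 14 of the 32 genes, IFE basal-like cells for 6, IFE keratinized-like and Langerhans cell-like cells for 5 each, and IFE differentiated-like and hair follicle-like cells for 1 each. Sebaceous gland-like cells and the cells of no named class are left out of this ranking and of the comparisons between classes that follow. For 10 genes the highest class stood apart in every mouse from the class next in mean, 3 of them among the 14 of T cell-like cells. Of these 10, Xaf1 had 12.2 CPM in the lowest mouse of its highest class, against up to 14.3 CPM in other classes. Ifit3 and Gbp3 were counted among the 14 from 1 count in 1 mouse each. T cell-like cells held 131393 to 325503 summed counts per mouse, so that few counts made a high CPM there. Zbp1 was present in 2 and 1 control and 4 and 3 CerS4epi-/- cells of this class, and Oasl2 in 1 and 1 against 0 and 2. The shares of all genes that are highest in each class, or that stand apart in this way, were not computed.

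Irf7 was highest in IFE keratinized-like cells (62.0 ± 25.6 CPM, SD, n = 4), apart from all other classes in every mouse, with T cell-like cells next (21.1 ± 9.78 CPM) and the other keratinocyte classes at 0.286 to 1.55 CPM. Xaf1, a pro-apoptotic interferon-stimulated gene, was also highest there (15.6 ± 4.29 CPM). Isg15 was at 64.6 ± 25.04 CPM in T cell-like and 60.4 ± 33.5 CPM in IFE keratinized-like cells, which overlap, and at 2.38 to 7.63 CPM in the other 4 classes. In the keratinocyte lineage, then, Irf7 and Isg15 were both higher in the keratinized-like layer than in the basal-like and differentiated-like layers.

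Cxcl10 had the opposite distribution, with its highest level in IFE basal-like cells (22.4 ± 10.2 CPM), apart from all other classes, then 6.43 ± 2.33 CPM in hair follicle-like cells, and 0.508 ± 0.488 CPM in keratinized-like cells. Irf1 was lower from layer to layer in the same order, with 132 ± 25.2 CPM in basal-like, 31.2 ± 9.15 CPM in differentiated-like and 3.89 ± 1.59 CPM in keratinized-like cells, and with no overlap between these layers in any mouse. Psmb8 followed this order too, with 88.0 ± 13.8, 23.1 ± 5.40 and 6.00 ± 0.99 CPM. Nlrc5 was highest in IFE differentiated-like cells (92.5 ± 8.31 CPM).

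The immune classes differed from keratinocytes in a few genes. Socs1 was at 206 ± 36.5 CPM in T cell-like cells and at 1.85 to 19.8 CPM on average in the other classes. Bst2, the membrane tether of enveloped viruses, was at 112 ± 30.9 CPM in T cell-like cells, at 109 and 156 CPM in control and 95.3 and 87.3 CPM in CerS4epi-/- mice (adjusted p = 0.88), and at 1.45 to 6.64 CPM elsewhere. Zbp1, the sensor of Z-form nucleic acid, had its highest mean level in T cell-like cells (13.4 ± 6.43 CPM). Langerhans cell-like cells had the highest levels of Psmb8 (167 ± 32.7 CPM), Psmb9 (59.5 ± 17.3 CPM) and Oas1a (32.8 ± 12.7 CPM).

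**Figure D4:**
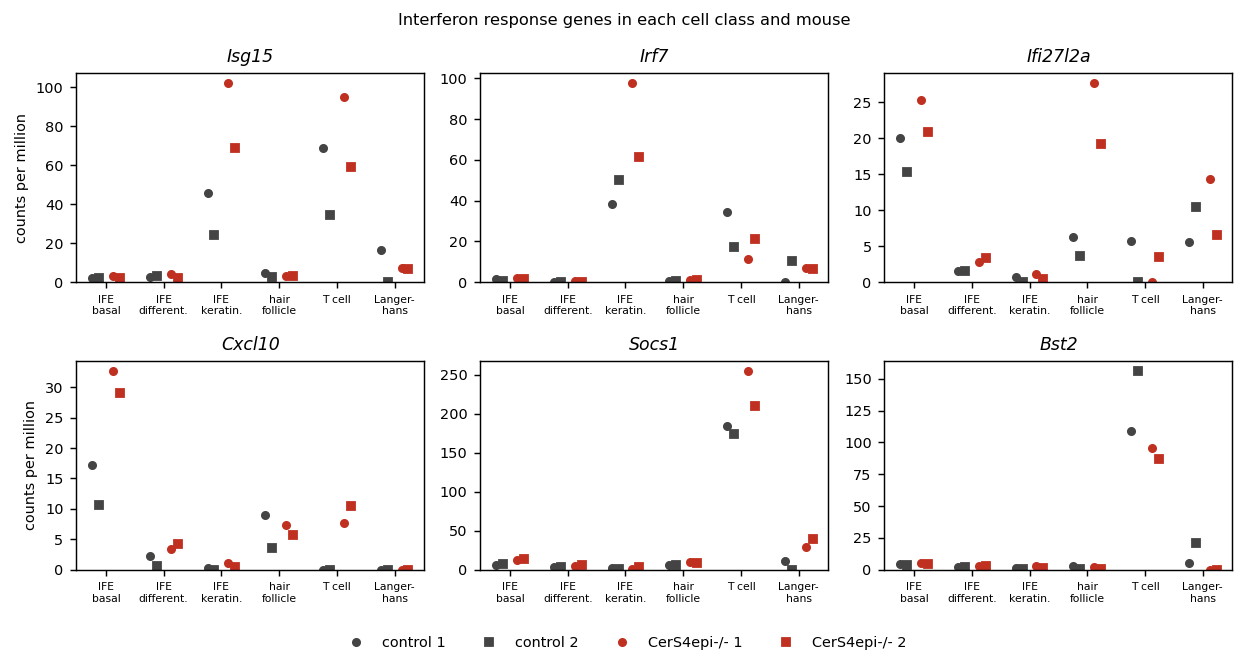
Level in CPM of 6 interferon response genes in each of 6 cell classes, with 1 point per mouse (grey for control, red for CerS4epi-/-, circles for mouse 1 and squares for mouse 2 of a genotype). Irf7 peaks in IFE keratinized-like cells (38.4 to 97.6 CPM), Cxcl10 in IFE basal-like cells (10.7 to 32.7 CPM) and Socs1 and Bst2 in T cell-like cells, whereas Ifi27l2a is split by genotype in hair follicle-like cells.

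Several antiviral effectors were rare in these libraries. Over all 34153 cells, Ifit2 had 2.5 counts, Ifit3 2, Gbp3 19.5, Rsad2 31.3 and Zbp1 47. Ifit1 had 208 counts in 64 cells, and the 10 cells with the most held 55.3% of them. These counts came from few cells, whereas the 1303 counts of Isg15 came from 651 cells with 17.3% in the top 10, and the 1720 counts of Ifi27l2a from 1350 cells with 3.95%.

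Cells with Ifit1 often carried other members. Of the 64 cells with Ifit1, which had a median of 10168 counts against 3434 for all cells, 36 (56.3%) also had Isg15, which was present in 1.91% of all cells, and 27 (42.2%) had Oasl2, present in 0.94%. In the IFE keratinized-like class, whose cells with Ifit1 had a median of 10449 counts against 9989 for the class, 11 of 11 cells with Ifit1 had Isg15, against 12.9% of the class. In the IFE basal-like class it was 5 of 14 cells (35.7%) against 0.723%, with a median of 3125 counts against 2879. Among IFE basal-like cells, 251 of the 556 cells with Cxcl10 (45.1%) also had Irf1, against 23.3% of the class, at a median of 3524 against 2879 counts. Because deeper cells hold more genes, these shares are descriptions and were not tested.

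Cells with at least 3 of 13 core interferon-stimulated genes amounted to 0.719% and 0.605% in the 2 control libraries against 1.24% and 0.582% in the CerS4epi-/- libraries. In IFE keratinized-like cells the shares were 7.14% (95% exact binomial interval 4.36 to 10.9) and 4.14% (2.28 to 6.85) in control and 10.7% (7.18 to 15.2) and 7.33% (4.07 to 12.0) in CerS4epi-/- mice. The CerS4epi-/- cells were deeper, with a median of 11600 and 10580 counts against 9818 and 9096. When each cell was thinned to 1200 counts, the shares over all cells were 0.0945% and 0.0221% against 0.133% and 0.0663%, and in keratinized-like cells 1.13% and 0% against 0.794% and 1.57%, with overlap between the genotypes in both. For 2 mice against 2 the smallest p an exact permutation test can reach is 0.3333, so that test could not pass 0.05, and no other test was run on these shares. A background share from free RNA was not computed.

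Of the interferon genes 6 were looked up, and Ifnk, Ifnb1, Ifng, Ifne, Ifnl2 and Ifnl3 had 0 counts in all 4 mice, which allows up to 0.0747 and 0.0697 CPM in the control and 0.0626 and 0.0857 CPM in the CerS4epi-/- mice. Of 19 receptor and signalling genes, 18 were tested in IFE basal-like cells with no call in either direction, so that no change was shown for the interferon receptors there. In IFE differentiated-like cells Socs3, the inhibitor of signalling by IL-6 family receptors, rose (22.01 and 20.8 against 37.9 and 38.3 CPM, 0.83, adjusted p = 0.00101), as did Stat3 (162 and 156 against 221 and 185 CPM, 0.36, adjusted p = 0.0422). Stat3 also rose in hair follicle-like cells (0.49, adjusted p = 0.00758).

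Among 11 nucleic acid sensors, 10 of which had a row, Aim2 stood out. Aim2, which binds cytosolic double-stranded DNA and forms an inflammasome, was at 0.216 and 0.478 CPM in control and 6.46 and 9.18 CPM in CerS4epi-/- basal-like cells, from 3 and 7 against 109 and 110 counts. It rose by 4.43 (SE 0.37, adjusted p = 0.00223) there and by 5.29 (adjusted p = 0.000508) in IFE differentiated-like cells, where the control mice had 1 count each. Aim2 was not tested in the other classes. Its mean was highest in Langerhans cell-like cells, at 5.59 and 20.96 against 64.5 and 52.67 CPM. These levels came from 1 and 2 against 9 and 8 counts. In T cell-like cells it was at 5.75 and 8.68 against 11.43 and 13.97 CPM. K14Cre targets neither of these immune classes. In hair follicle-like cells it was at 1.09 and 0 against 0.2435 and 1.025 CPM, where the genotypes overlap. No other gene of this sensor list was called in a class, and Ifih1 and Zbp1 are counted with the listed genes. Over all cells Ddx58, the gene of the RNA sensor RIG-I, was called as well (5.18 and 6.11 against 8.23 and 8.00 CPM, 0.52, adjusted p = 0.0403).

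Of 54 further interferon-stimulated genes, 35 were tested in IFE basal-like cells, and 2 were called higher and 1 lower, against 4.11% of all genes higher and 2.71% lower, with a median log2 fold change of -0.05. Ly6e, an interferon-stimulated surface protein, rose from 128 and 130 to 248 and 312 CPM (1.12, adjusted p = 0.00308) and Ifitm2 from 245 and 238 to 363 and 354 CPM (0.57, adjusted p = 0.00467). Trim30a was lower, at 8.78 and 7.51 against 4.03 and 2.76 CPM (-1.23, adjusted p = 0.0183). Of 28 tested in IFE differentiated-like cells, Trim25 was called higher (0.51, adjusted p = 0.0234) and Isg20 lower (-0.65, adjusted p = 0.0222), against 3.93% of all genes higher and 3.04% lower.

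In IFE keratinized-like cells, where Isg15, Irf7 and Ifih1 rose, 16 of the 54 were tested and 3 were called higher and 1 lower, against 5.83% of all genes higher and 2.76% lower. Rtp4 went from 2.51 and 0.641 to 7.39 and 8.64 CPM (2.34, adjusted p = 0.0189), Ddx60, a helicase that assists RNA sensors, from 3.95 and 3.52 to 15.9 and 10.7 CPM (1.84, adjusted p = 0.00854), and Trim25, the ubiquitin ligase that activates RIG-I, from 56.8 and 50.6 to 107 and 98.1 CPM (0.93, adjusted p = 0.00187). Ifitm2 was lower (-0.50, adjusted p = 0.0438). In hair follicle-like cells 20 were tested, with Ly6e (1.42, adjusted p = 0.00117) and Ifitm2 (0.57, adjusted p = 0.00764) higher and Isg20 lower (-1.31, adjusted p = 0.00535), against 8.52% of all genes higher and 6.1% lower.

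Further genes of the class I pathway were called higher in small numbers, with 1 of 16 in IFE basal-like, 2 of 16 in IFE differentiated-like and 1 of 16 in hair follicle-like cells, and none lower. The shares of all genes called higher in these classes were 4.11%, 3.93% and 8.52%. Tap2, which pairs with Tap1 in the peptide transporter, was at 25.3 and 23.3 against 36.3 and 33.4 CPM in basal-like cells (0.52, adjusted p = 0.0222). The nonclassical class I genes H2-Q4 and H2-Q7, which share reads with their relatives, were called in IFE differentiated-like cells (0.51 and 0.49, adjusted p = 0.0185 and 0.0283), and Calr, a chaperone of class I assembly, in hair follicle-like cells (0.51, adjusted p = 0.0222). Of the 8 class II pathway genes, which mark Langerhans cells, H2-Eb1 was called higher in IFE basal-like cells (6.91 and 7.44 against 14.2 and 14.4 CPM, 0.99, adjusted p = 0.00725) and H2-Aa lower in IFE differentiated-like cells (9.90 and 18.2 against 6.93 and 6.73 CPM, -1.04, adjusted p = 0.0413). None of these further genes was called in T cell-like or Langerhans cell-like cells.

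Other measures also differed between the genotypes, though not in the same way in every class that carried calls. Of 16 dissociation and early response genes such as Fos, Jun and Egr1, 7 were called higher in IFE basal-like, 10 in IFE differentiated-like and 7 in IFE keratinized-like cells, and in hair follicle-like cells 1 higher and 1 lower. Of all genes tested, 4.11%, 3.93%, 5.83% and 8.52% were called higher in these classes in the same order, and 6.1% lower in hair follicle-like cells. The summed level of the early response genes was 21430 and 19940 against 22980 and 25050 CPM in basal-like, 12930 and 9341 against 17120 and 17070 CPM in differentiated-like, and 7393 and 5192 against 8749 and 8859 CPM in keratinized-like cells. In hair follicle-like cells it was 17610 and 13950 against 15790 and 14080 CPM, where the genotypes overlap. Irf1 and Socs3 are themselves known to be induced early by stress and cytokines. The median mitochondrial share was 9.66% and 9.56% against 11.1% and 10.9% in basal-like cells and 7.08% and 6.65% against 9.56% and 9.17% in hair follicle-like cells. In differentiated-like cells it was 7.98% and 7.91% against 8.65% and 8.38%. In keratinized-like cells it was lower in CerS4epi-/- mice, at 3.112% and 3.075% against 2.823% and 2.718%. The part of these shifts in the results was not tested.

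Counts of immune markers were also present in the keratinocyte classes, in 6.32% to 16.0% of the cells of a class and mouse. The summed level of 12 immune markers was 9.70 to 79.8 CPM in the 4 keratinocyte classes, against 54070 to 66330 CPM in Langerhans cell-like cells. The genotypes overlapped in the keratinized-like and hair follicle-like cells. In IFE differentiated-like cells the summed level was lower in CerS4epi-/- mice, at 32.3 and 57.2 against 28.8 and 29.2 CPM. In IFE basal-like cells it was 34.9 and 36.1 against 44.2 and 40.6 CPM, and the Cxcl10 and Socs1 differences were called also when cells with an immune marker count were left out. With those cells left out, H2-K1 in IFE differentiated-like cells (0.26, adjusted p = 0.0571) and Ifih1 in IFE keratinized-like cells (0.97, adjusted p = 0.0527) were not called. The T cell-like and Langerhans cell-like classes themselves held 66 to 146 and 39 to 73 cells per mouse and 131393 to 325503 and 114258 to 211037 summed counts, so that the differences in low genes such as Cxcl10 were not detectable there at this depth. In sebaceous gland-like cells, which were too few to test, H2-K1 was at 685 and 785 CPM in control and 996 and 1518 CPM in CerS4epi-/- mice and Isg15 had 1 count in all.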

How the data were processed

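Whole single cell transcriptomes (BD Rhapsody) were available as 1 gene by barcode matrix for each of 4 mice, 2 per genotype. Per the authors' methods, reads were trimmed with fastp 0.23.2 and aligned with STARsolo (STAR 2.7.10a) to GRCm39, counting exonic and intronic sense reads, and reads mapping to several genes were shared by expectation maximisation, so the deposited values are expected counts. Between 4.55% and 4.81% of entries held fractions, and the sums were made whole before testing.

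Barcodes under 1200 counts or over 20% mitochondrial counts were dropped. They were normalised with scran 1.30.0, integrated with Harmony, clustered in Scanpy 1.11.5 with 3000 variable genes, the listed genes held out, and named from marker genes. Scrublet marked 1 cell, so it had not worked and doublets were taken as present. Counts were summed per mouse and class, where no mouse had fewer than 20 cells of the class, and tested with edgeR 4.0.16 (TMM, quasi-likelihood test, Benjamini-Hochberg adjustment over all genes tested). CPM values use the TMM library sizes of each class. Class differences in the genotype effect were tested in 1 model with the mouse as a block. DESeq2 1.42.0 was an alternative, as were other normalisations, filters, clusterings and leaving out each mouse. All listed genes could be named, and of the wider lists up to 8 called genes per comparison with the largest change. Some items are not reported here. Members and lists were chosen with earlier results of these data known. Intervals and limits at 0 counts cover counting error only. Upstream regions were read from the GRCm39 genome and its gene annotation. The statistical steps were tested on simulated data.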

Additional observations from a re-analysis of the deposited data

Results flagged for a closer look

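The genotype effect differed between cell classes for 16 pairs of gene and class, by the interaction term with an adjusted p below 0.05 in edgeR's quasi-likelihood test. Among the listed genes these were in hair follicle-like against IFE basal-like cells, with a difference in log2 fold change of 1.83 for Ifi27l2a, -0.585 for Nlrc5 and -1.11 for Cxcl10. In the same comparison the wider lists held Isg20 (-0.97), Tapbpl (0.62), Calr (0.76), Pdia3 (0.45) and H2-Eb1 (-1.58). For IFE differentiated-like against IFE basal-like cells they were Ifngr1 (0.36), Socs3 (0.52) and Ly6e (-0.79). For IFE keratinized-like against IFE basal-like cells they were Trim25 (0.81), Ifitm2 (-1.05), Ly6e (-1.09), Cd74 (-2.67) and H2-Aa (-2.22), of which Cd74 and H2-Aa are class II genes of Langerhans cells and were too low to be tested within the keratinized-like class.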

How the results depend on the processing

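Every call of a listed gene kept its direction under every alternative run. In IFE basal-like cells (4 calls) there were 2 with DESeq2 size factors, with at least 2000 counts per cell, with at most 10% mitochondrial counts, without the 5% of cells with the highest doublet scores and without Harmony, 1 in the largest cluster only (added after seeing the data), and 2 to 5 without a mouse. In IFE differentiated-like cells (2 calls) there were 7 without the low count filter, 1 with the mitochondrial limit, the doublet limit or cells with immune marker counts left out, and 1 to 3 without a mouse. In IFE keratinized-like cells (3 calls) there were 1 to 5 without a mouse. In hair follicle-like cells (1 call) there were 2 by DESeq2, with the mitochondrial limit, the doublet limit, whole entries only, no Harmony, resolution 1.2, Leiden seed 2 or the largest cluster, 4 without the low count filter, and 1 to 2 without a mouse. Over all cells (4 calls) there were 2 to 5 without a mouse, and for the class differences 0 to 1 (IFE differentiated-like, 0 calls) and 1 to 5 (hair follicle-like, 3 calls). Without CerS4epi-/- mouse 1, Gbp2 was called lower in IFE basal-like cells (-0.91, adjusted p = 0.0194). The cause of these shifts was not tested. Replicate numbers only name the mice (correlation of same-numbered deviations -0.0619 to 0.134), and with them as a replicate block the calls were 7 in IFE basal-like, 5 in IFE differentiated-like, 2 in hair follicle-like and 7 over all cells. Over all genes, the 907, 882, 634, 1723, 1, 4 and 2287 calls (IFE basal-like, differentiated-like, keratinized-like, hair follicle-like, T cell-like, Langerhans cell-like, all cells) became 1751, 1679, 832, 1851, 40, 19 and 2595 with the replicate block, 672, 486, 402, 916, 0, 4 and 2125 by DESeq2 and 2083, 1727, 858, 2431, 28, 15 and 2855 without the low count filter. With a mouse left out they ranged over 473 to 1118, 628 to 964, 112 to 971, 1000 to 1813, 0 to 34, 0 to 16 and 1040 to 2256. T cell-like cells with at least 2000 counts were not run, as fewer than 20 remained in the control mice.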

Other observations

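A cluster of 1847 cells led by Lor, Wfdc21 and Cdsn, between the differentiated-like and keratinized-like cells, met the markers of no single class and entered no comparison. In its 448 and 633 control and 415 and 351 CerS4epi-/- cells, Irf7 was at 3.52 and 3.73 against 5.90 and 4.57 CPM and Ifih1 at 17.6 and 20.5 against 27.2 and 22.1 CPM. Both CerS4epi-/- mice were also above both control mice for Stat2 (33.3 and 30.7 against 40.0 and 39.6 CPM) and H2-K1 (1912 and 1882 against 2206 and 2140 CPM). These genes are examples, no test was run in this cluster, and the share of all genes that separate so was not computed. Isg15 overlapped, at 11.9 and 9.32 against 16.9 and 10.9 CPM, and B2m was lower in both CerS4epi-/- mice, at 2107 and 2047 against 1966 and 1778 CPM. Of the 64 cells with Ifit1, 22 lay in this cluster.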
